A study of Homo sapiens with 14 samples.

Results

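The androgen target genes examined here are 36 androgen-responsive genes, taken by symbol from a fixed list and looked up in the RNA-seq tables of LNCaP and DU145 cells, with older symbols accepted (ACPP is now ACP3). All 36 had a row among the 44591 genes of the LNCaP table, and 35 had a row among the 24199 features of the DU145 table, where PART1 was not found. The rule that chooses them uses no measured value, but the list was put together with earlier results of these data known.

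Androgens such as testosterone and dihydrotestosterone act on prostate cells mainly by changing transcription, through androgen response elements in the DNA that usually lie far from the genes they control and that work together with the pioneer factor FOXA1 and with HOXB13. In the luminal cells of the prostate the genes induced in this way include secreted and membrane proteases, transporters, metabolic enzymes and regulators of transcription, and several of them serve as markers or drug targets in prostate cancer. Enzalutamide blocks androgen signalling, so the expression of such target genes is commonly used to follow how active that signalling is.

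RNA was sequenced from LNCaP, an androgen-sensitive line from a lymph node metastasis of prostate cancer, and from DU145, an androgen-insensitive prostate cancer line. Parental LNCaP cells, labelled as wild type, were grown in RPMI-1640 with serum, and LNCaP-ENZ cells are a resistant LNCaP line kept in 20 µM enzalutamide, for which the series text gives 30 days of treatment. DU145 cells in DMEM with serum carried either a non-target hairpin (shCON) or a hairpin against PAX6 (shPAX6), each as a stable lentiviral subclone line, and which of the hairpins made for the study was used is not given in the sources used here. The labels give 1 library for each LNCaP arm and 3 for each DU145 arm, although the methods state 3 replicates per line. No enzalutamide was given to the DU145 cells, and no hormone deprivation is named for any group. Nothing in the labels says that the 3 libraries of a DU145 group came from separate cultures, so their p-values measure only the spread between these libraries.

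The 2 LNCaP libraries held 20468001 counts (parental) and 17945722 counts (LNCaP-ENZ), so 3 counts, used as a floor, equal 0.147 and 0.167 CPM. DU145 values are FPKM, whose read depth is unknown, and they summed to between 448901 and 570790 per library. Luminal markers were present in both LNCaP libraries: HOXB13 stood at 190.9 and 180.8 TPM and KRT18 at 93.2 and 87.6 TPM. KRT8 (11.03 and 9.80 TPM), EPCAM (21.9 and 17.1 TPM) and KLK3 (48.6 and 34.1 TPM) had lower values in LNCaP-ENZ cells. The basal markers KRT5, KRT14 and TP63 together had 4 and 0 counts. The 4 leukocyte markers together had 56 counts without and 68 counts with enzalutamide, the 5 neuroendocrine markers 21 and 34, and the 3 fibroblast markers 492 and 288, the last mostly from COL1A1. In DU145, KRT8 and KRT18 were high (KRT8 635 to 993 FPKM), whereas HOXB13 was listed at 0 in all 6 libraries and KLK3 reached at most 0.058 FPKM. EPCAM stood at 11.5 to 11.7 FPKM in shCON and at 6.71 to 7.08 FPKM in shPAX6 libraries. In such bulk samples, fewer expressing cells and less RNA per cell cannot be told apart.

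To show what such an element near a start can look like, the promoter windows of RefSeq (GRCh38.p14, 250 bases before to 50 after each start) were searched for the androgen response element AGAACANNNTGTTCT, an inverted repeat of 2 arms of 6 letters with 3 free letters between, which reads the same on both strands. Of the 36 genes, 24 had at least 1 window and 39 windows were found, since several genes have more than 1 start. The best match in each window was scored by how many of the 12 fixed letters it held. At least 9 letters were held in 6 of the 39 windows (15.4%) and in 10.8% of all 35116 windows, and at least 10 letters in 1 of the 39 and in 1.41% of all. An exact arm, AGAACA or its reverse complement TGTTCT, stood in 4 of the 39 windows (10.3%) and in 14.8% of all.

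The 6 windows with at least 9 letters are shown with the KLK3 promoter, a well known example of this element, and with ACPP, the gene that was higher in LNCaP-ENZ cells. Letters in capitals match the element, each line is read in the direction of the gene, and the number of matching letters can be counted from them.
KLK3: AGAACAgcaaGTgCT
PMEPA1, the second start: tGAAgAatgTGTTCT
TRPM8, the first start: AaAAtAccaTGTTCa
PTGER4: AGAAaAgttTGTaCa
FKBP5, the first start: AGAAaAgcagGgTCT
STEAP2, the second start: AGAgaAatcTGaTCT
PART1: AGttCAgtaTtTTCT
ACPP: gGgAaActgTGaTCT
The KLK3 site (chr19:50854745-50854759, plus strand) and the PMEPA1 site (chr20:57710801-57710815, minus strand) each held 10 of the 12 letters, the ACPP site (chr3:132317254-132317268, plus strand) held 8, and the rest held 9. The sites of MAF, SLC45A3 and ALDH1A3, which were among the genes with the largest differences in LNCaP, held 6 letters, under the median of 7 over all windows. Such a match describes the letters in the window and does not show binding.

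The 250 bases before the second start of PMEPA1 (chr20:57710578-57710827, minus strand, GRCh38.p14) are given whole, because this window held the best match among the target genes. The site begins at position -238 from the start, and its letters that match the element are in capitals.
PMEPA1: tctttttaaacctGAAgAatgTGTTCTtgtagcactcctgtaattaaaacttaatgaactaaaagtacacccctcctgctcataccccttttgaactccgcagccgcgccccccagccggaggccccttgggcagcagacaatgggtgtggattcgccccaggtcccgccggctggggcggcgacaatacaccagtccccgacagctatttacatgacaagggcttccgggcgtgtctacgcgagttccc
The 250 bases before the first start of TRPM8 (chr2:233917123-233917372, plus strand, GRCh38.p14) are given for comparison as the promoter of a channel gene with one of the largest differences in LNCaP. Its best match to the element, in capitals from position -194, held 9 of the 12 letters and no exact arm.
TRPM8: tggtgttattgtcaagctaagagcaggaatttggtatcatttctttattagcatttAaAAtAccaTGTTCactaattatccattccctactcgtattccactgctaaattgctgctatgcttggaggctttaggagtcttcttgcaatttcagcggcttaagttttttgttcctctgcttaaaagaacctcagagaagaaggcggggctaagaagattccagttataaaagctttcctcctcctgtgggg

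The first question was how the target genes stood in LNCaP cells kept in enzalutamide compared with parental LNCaP cells. Most of them were lower in LNCaP-ENZ cells, from transcription factors such as ZBTB16 and MAF to the transporter SLC45A3 and the protease TMPRSS2, while FOLH1, SORD and MED28 were at about the same level and ACPP alone was past 2-fold higher. Values are log2 ratios of CPM + 0.1, LNCaP-ENZ over parental, a scale that understates differences of low genes, with exact Clopper-Pearson intervals that cover counting error only. With 1 library per arm there is no replicate check and no test, and a ratio compares these libraries, not the conditions.

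Of the 36 genes, 31 reached a mean of 1 CPM over both libraries. Of these 31, 17 (54.8%) were past 2-fold lower in LNCaP-ENZ cells, beside 9.57% of all 14767 genes with that mean, 1 was past 2-fold higher (1.84% of all genes) and 13 were within 2-fold. At least 4-fold lower were 9 of the 31 (29%), beside 1.05% of all genes. A ratio below 0 was seen for 27 of 31 (62.3% of all genes), with the whole interval below 0 for 26 and above 0 for 3. The median log2 ratio of the 31 genes was -1.02, and that of all genes was -0.15. With all 36 genes and no filter, 31 were below 0 and the median was -1.01. ZBTB16, MAF, TRPM8 and GNMT reached the mean only through the parental library. Among the 27 genes with at least 1 CPM in both libraries, 13 were past 2-fold lower, beside 7.84% of all 14018 such genes, and the median was -0.90, beside -0.14 for all of them. Summed over the 36 genes, there were 89056 counts (0.435% of the library) in parental and 54022 (0.301%) in LNCaP-ENZ cells.

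**Figure D1:**
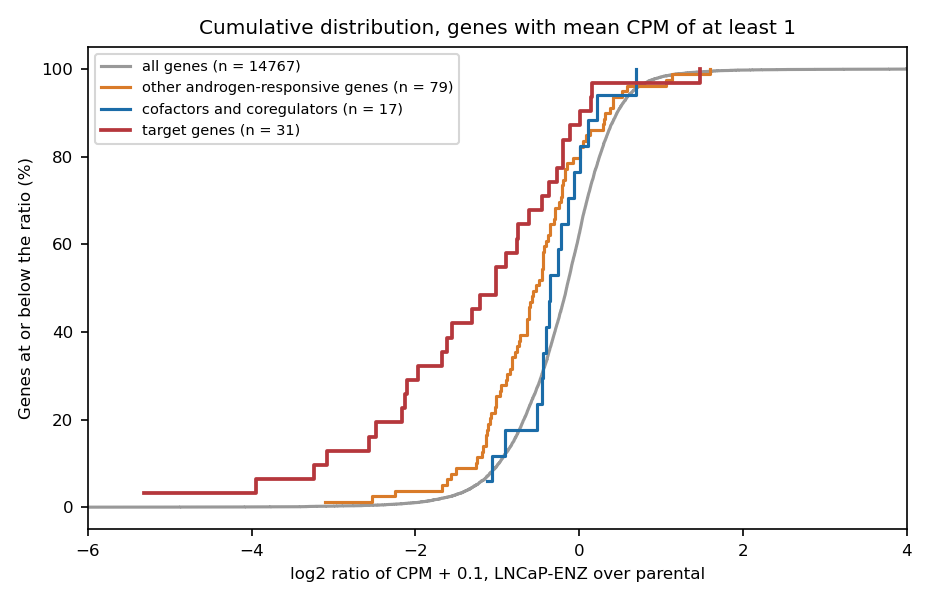
Cumulative share of genes (y axis, %) at or below each log2 ratio of CPM + 0.1 between LNCaP-ENZ and parental cells (x axis, 1 library each), for all 14767 genes with a mean of at least 1 CPM, the 31 target genes, 79 other androgen-responsive genes and 17 cofactor and coregulator genes. The curve of the target genes lies left of the others over most of its range, with a median of -1.02 against -0.15 for all genes.

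Of the 31 genes, the 3 with the lowest ratios regulate transcription. ZBTB16 (PLZF), a zinc finger repressor, (chr11:113930431-114121398) had 395 counts in the parental library and 7 in the other, 39.6-fold lower on the CPM + 0.1 scale (log2 ratio -5.31, interval -6.95 to -4.57). MAF, a bZIP transcription factor (chr16:79627745-79634622), had 188 and 9 counts (-3.95, -5.35 to -3.24), and both genes had few counts left in LNCaP-ENZ cells, so their ratios depend on the pseudocount. With 1 CPM in place of 0.1 they were -3.87 for ZBTB16 and -2.76 for MAF, and in deposited TPM MAF was at -3.12. Positions are those of the LNCaP table, on GRCh37. ZBTB10, another zinc finger protein of this class (chr8:81397854-81438500), had 2583 and 238 counts (-3.24, -3.45 to -3.06), so its 9.45-fold difference rests on many more reads. ELL2, a subunit of the super elongation complex of RNA polymerase II, had 566 and 125 counts (-1.97, -2.28 to -1.71). Its binding partner EAF2 was near the detection limit with 29 and 18 counts, and its interval included 0 (-0.46, -1.43 to 0.40). MED28, a Mediator subunit, had 1229 and 1084 counts and was equal within counting error (0.01, -0.11 to 0.13). ZBTB16 and MAF passed the filter only through the parental library, and of the 4 genes of this class with at least 1 CPM in both libraries, 2 were past 2-fold lower (7.84% of all genes).

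The 4 transporters and channels were all lower, as were 62.3% of all genes, and 3 were past 2-fold lower (9.57% of all genes). Of the 3 with at least 1 CPM in both libraries, 2 were past 2-fold lower (7.84% of all such genes). TRPM8, the cold and menthol channel of sensory neurons and prostate epithelium (chr2:234826043-234928166), had 102 and 9 counts (log2 ratio -3.08, -4.48 to -2.33). It passed the filter only through the parental library, and its ratio was -1.99 with a pseudocount of 1 CPM. SLC45A3 (prostein), a prostate-restricted transporter (chr1:205626981-205649630), had 933 and 136 counts (-2.57, -2.86 to -2.33), 5.95-fold lower. ABCC4, an efflux pump for cyclic nucleotides and prostaglandins, had 4912 and 1859 counts (-1.21, -1.29 to -1.13). SLC43A1, a carrier of large neutral amino acids, was within 2-fold with 2749 and 1584 counts (-0.61, -0.70 to -0.52).

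Among the surface proteins, the protease and the prostaglandin receptor were past 2-fold lower, and the prostate antigens were not. TMPRSS2, the membrane serine protease whose promoter drives ERG in many prostate cancers, had 5394 and 1471 counts (log2 ratio -1.68, -1.77 to -1.60). PTGER4, a receptor for prostaglandin E2, had 160 and 30 counts (-2.16, -2.84 to -1.66). FOLH1 (PSMA), a target of prostate imaging and radioligand therapy, had 8171 and 7894 counts and was slightly higher (0.14, 0.10 to 0.18). STEAP1, also a therapy target, had 904 and 689 counts (-0.20, -0.35 to -0.06), and STEAP2, a metalloreductase beside it on chromosome 7, had 5543 and 4217 counts (-0.20, -0.26 to -0.15); a GC correction turned these to 0.15 and 0.33. FOLH1, STEAP1 and STEAP2 thus stood within 2-fold of the parental level. CHRNA2, a nicotinic receptor subunit, had 35 counts and 1 count (-3.54, -10.28 to -2.37), ADAM7 had 20 and 4, and STEAP4 had 2 and 1, the last under the floor in both libraries.

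Among 6 enzymes with a mean of at least 1 CPM, 4 were past 2-fold lower (9.57% of all genes) and 1 higher (1.84%). Of the 5 with at least 1 CPM in both libraries, 3 were past 2-fold lower (7.84% of all such genes). ALDH1A3, which makes retinoic acid from retinaldehyde, had 437 and 67 counts (log2 ratio -2.48, -2.91 to -2.14). GNMT, a methyltransferase that consumes S-adenosylmethionine, had 57 and 15 counts (-1.62, -2.66 to -0.90) and passed the filter only through the parental library. UAP1, which makes UDP-N-acetylglucosamine for glycosylation, had 3095 and 923 counts (-1.55, -1.66 to -1.45), and ACSL3, which activates long-chain fatty acids, had 1207 and 425 (-1.31, -1.48 to -1.16). SORD, which converts sorbitol to fructose, had 5681 and 5573 counts (0.16, 0.11 to 0.22). ACPP, the prostatic acid phosphatase (chr3:132036211-132087146), was the only target gene past 2-fold higher, with 85 and 210 counts, 2.78-fold (1.47, 1.12 to 1.88). NNMT, a nicotinamide methyltransferase, had 3 and 4 counts.

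Of the 7 signalling and scaffold genes, all were lower (62.3% of all genes) and 3 were past 2-fold lower (9.57% of all genes). HERC3, a HECT-type ubiquitin ligase, had 813 and 162 counts (log2 ratio -2.13, -2.39 to -1.89). PMEPA1, a membrane protein that dampens TGF-beta signalling, had 733 and 149 counts (-2.10, -2.37 to -1.85). C1orf116, also called specifically androgen-regulated gene, had 4428 and 1919 counts and lay at the 2-fold line (-1.02, -1.09 to -0.94). TPD52, a vesicle-trafficking protein, lay just inside that line with 3711 and 1748 counts (-0.90, -0.98 to -0.81). FKBP5, a co-chaperone of steroid receptors, had 1249 and 648 counts (-0.76, -0.90 to -0.62), and CAMKK2, the calcium-dependent kinase that activates AMPK, had 2739 and 1424 (-0.75, -0.85 to -0.66). NDRG1, a stress- and hypoxia-responsive gene, had 25235 and 17076 counts (-0.37, -0.40 to -0.35).

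Of 3 genes linked to cell division, 1 was past 2-fold lower (9.57% of all genes). MPHOSPH9, a centriole protein, had 469 and 203 counts and lay at the 2-fold line (log2 ratio -1.01, -1.26 to -0.78). CENPN, a centromere protein, had 1260 and 913 counts (-0.27, -0.40 to -0.15). NCAPD3, a condensin II subunit, had 3926 and 3179 counts (-0.11, -0.18 to -0.05), a value that became 0.04 with the median of all genes set to 0. PART1, a prostate non-coding RNA, had 13 and 8 counts.

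**Figure D2:**
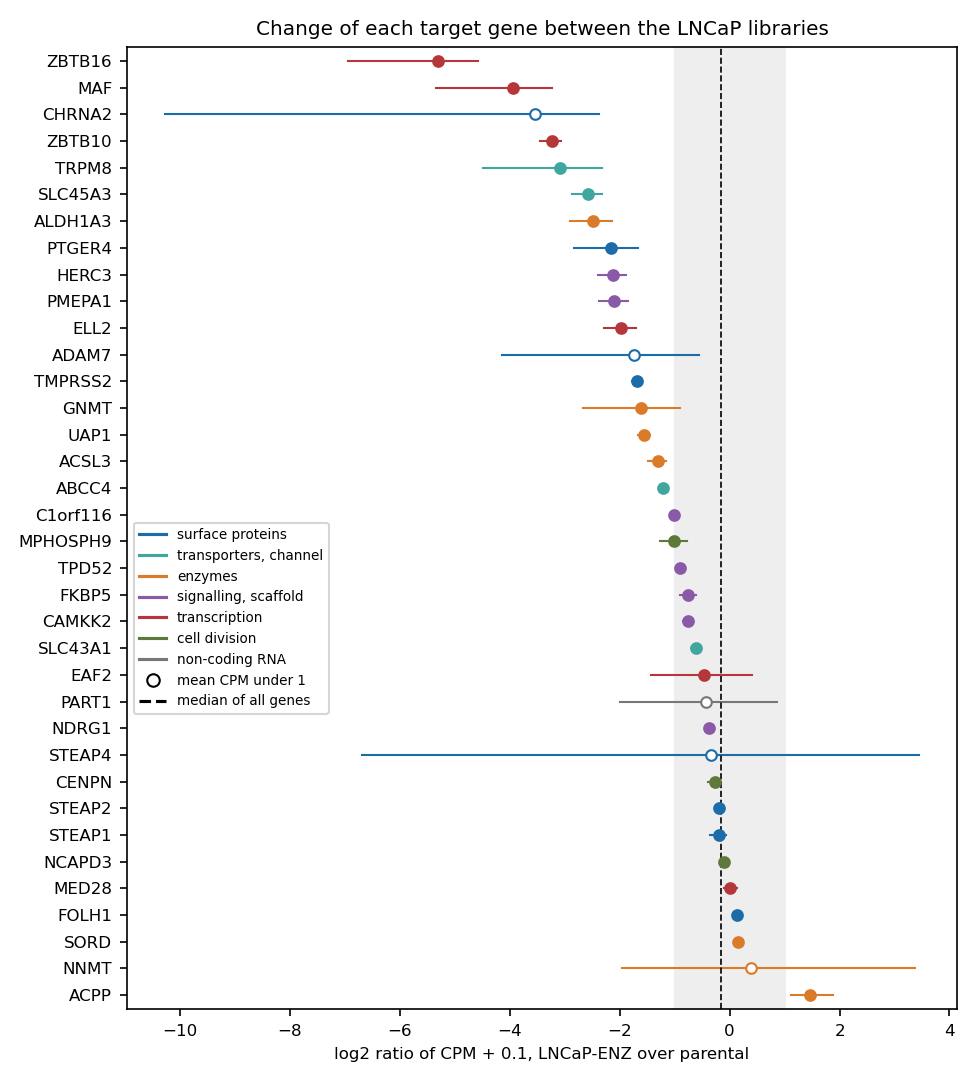
Log2 ratio of CPM + 0.1 of each target gene between LNCaP-ENZ and parental cells (x axis, 1 library each) with its exact 95% interval for counting error, coloured by class. Open points are genes with a mean under 1 CPM, the grey band marks ratios within 2-fold, and the dashed line is the median of all genes (-0.15). ZBTB16 (-5.31) and MAF (-3.95) lie at the top, and ACPP (1.47) at the bottom.

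Per gene length, the target genes ranged in the parental library from 0.0223 TPM for STEAP4 to 370.1 TPM for NDRG1. NDRG1 was the most abundant in both libraries and stood at 269.1 TPM in LNCaP-ENZ cells. FOLH1 followed with 152.5 and 158.4 TPM and SORD with 99.98 and 105.4 TPM. TMPRSS2 came next in parental cells with 82.9 TPM, and with 24.3 TPM in LNCaP-ENZ cells it stood under SLC43A1 (53.1 and 32.9 TPM), STEAP2 (39.6 and 32.4 TPM), NCAPD3 (35.7 and 31.1 TPM), STEAP1 (35.1 and 28.8 TPM) and MED28 (26.2 and 24.8 TPM). ZBTB10 was at 12.9 and 1.28 TPM and ZBTB16 at 8.30 and 0.158 TPM. TPM in this table are scaled to totals of which a single gene, RN7SK, took 38.8% and 38.5%, so they are lower than in a table without it. Reads of near-identical copies (FOLH1 and FOLH1B, SORD and its pseudogene, STEAP1 and STEAP1B) may be divided between the copies in a way the sources do not state.

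**Figure D3:**
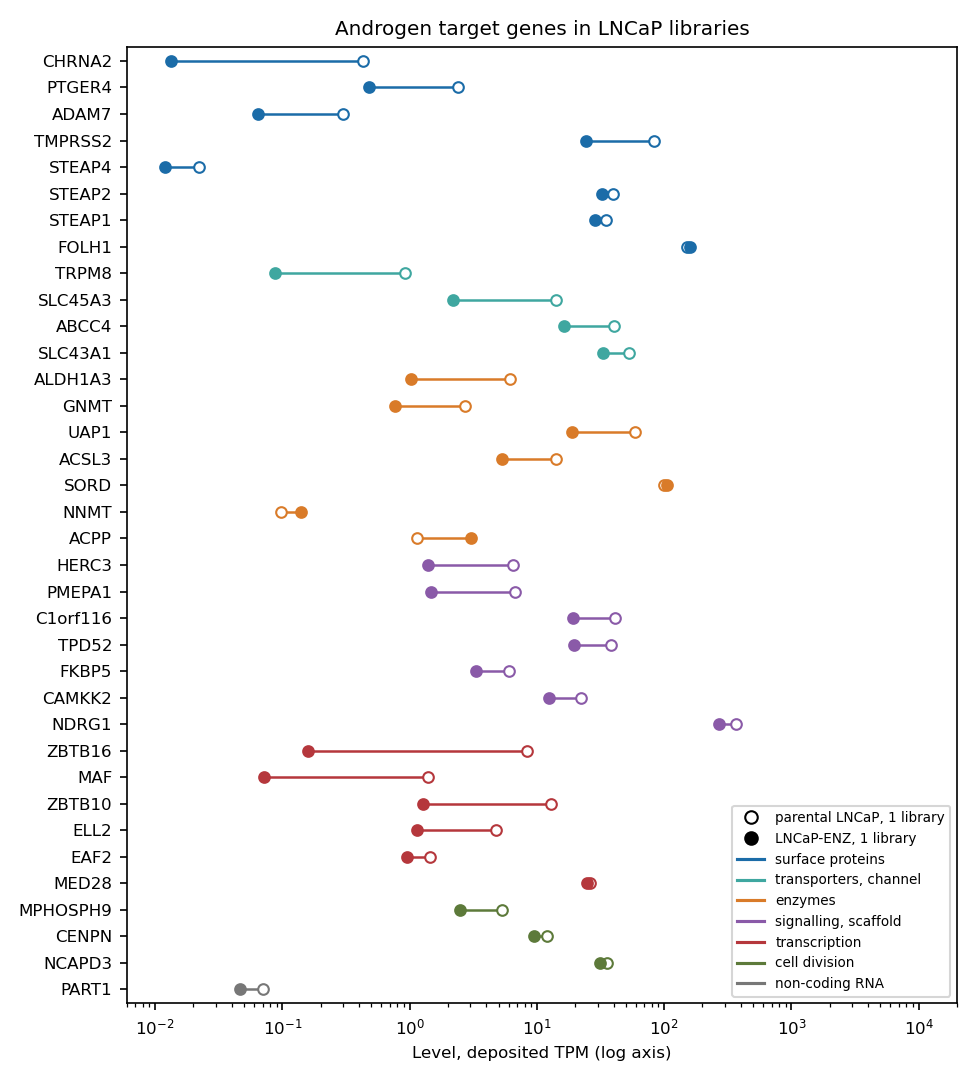
Level of each of the 36 target genes in deposited TPM (x axis, log scale) in the parental LNCaP library (open circles) and the LNCaP-ENZ library (filled circles), grouped and coloured by class. The line between the circles of ZBTB16 runs from 8.30 to 0.158 TPM, whereas the circles of FOLH1 (152.5 and 158.4 TPM) and SORD (99.98 and 105.4 TPM) overlap.

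A trend across all genes moved with these ratios. The log2 ratio increased with GC content (Spearman rho 0.37 over the 12608 genes with a GC value, a description across genes of the same 2 libraries) and decreased with gene length (rho -0.24). The 31 target genes had a median GC content of 43.8% and a median length of 4361 bases, beside 48.5% and 3060 bases for all genes. After a GC correction, added after this trend was seen, 15 of the 31 were past 2-fold lower, beside 6.22% of all genes, with a median of -0.91, and after a correction for GC and length together 14 of the 31, beside 6%. ACSL3 and MPHOSPH9 were within 2-fold after either correction (-0.80 and -0.64 after the first), and ABCC4 after the joint one (-0.93). C1orf116 and MPHOSPH9 were within 2-fold when the median of all genes was set to 0 (both -0.86).

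The other parts of the pathway, from lists put together by hand, differed less. Of 17 transcription cofactors, coregulators and chaperones of steroid signalling with a mean of at least 1 CPM, 2 were past 2-fold lower (11.8%, beside 9.57% of all genes) and 0 higher (1.84% of all genes), and their median was -0.36. These 2 were NCOA1, a coactivator with 1740 and 703 counts (log2 ratio -1.12), and PIAS1, a SUMO ligase with 927 and 389 counts (-1.06), and both were within 2-fold with the median of all genes set to 0 (-0.96 and -0.91). The corepressor NCOR1 had 3811 and 1776 counts (-0.91). The pioneer factor FOXA1 had 9649 and 7263 counts (-0.22), HOXB13 11374 and 10025 (0.01, -0.14 after the GC correction) and GATA2 4902 and 4649 (0.11, -0.01 after it). FKBP4, another steroid receptor co-chaperone, was higher with 5285 and 7516 counts (0.70), and HSP90AB1 had 30381 and 30990 (0.22).

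Of 79 other androgen-responsive genes with that mean, 20 were past 2-fold lower (25.3%, beside 9.57% of all genes) and 3 past 2-fold higher (3.8%, beside 1.84%), with a median of -0.53. Several of the 20 were within 2-fold with the median of all genes set to 0, where 6.45% of all genes were past 2-fold lower. Examples, named after their values were seen, are LIFR (-0.99), ABHD2 (-0.93) and ELOVL5 (-0.86). After the GC correction LIFR (-0.63) and LMAN1 (-0.75) were within 2-fold. Among the 20, INPP4B reached the mean only through the parental library (41 and 17 counts). The largest differences were those of ADAMTS1, a secreted metalloprotease (1922 and 195 counts, log2 ratio -3.10), the phosphatase PTPN21 (220 and 32, -2.53) and the scaffold IQGAP2 (241 and 43, -2.25). The kallikreins KLK3, which encodes PSA, and KLK2 had 1817 and 1186 counts (-0.43) and 1830 and 709 counts (-1.18), and since they are similar in sequence their counts may share reads. Higher were B2M, the light chain of MHC class I (3129 and 6022, 1.13), RRP12, a ribosome biogenesis factor (1275 and 2334, 1.06, 0.92 after the GC correction), and PA2G4 (6623 and 8305, 0.52). The third gene past 2-fold higher was the steroid dehydrogenase HSD17B14 (43 and 118, 1.60), which is under the level set for naming and was named after its values were seen.

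The second question was whether the target genes differed between shPAX6 and shCON cells of the androgen-insensitive line DU145. They did not pass the test: 0 of the 25 tested genes had an adjusted p under 0.05 (limma with Benjamini-Hochberg adjustment), beside 1.2% of all tested features (1.02% lower and 0.177% higher), and the smallest was 0.11, for CENPN. Among single genes, STEAP1, STEAP2, CENPN and EAF2 had higher values in all shPAX6 libraries, and SLC45A3, SLC43A1, ALDH1A3, CAMKK2, HERC3, C1orf116, NNMT, NDRG1 and MED28 lower ones. PAX6, the targeted gene, had 0.839, 1.23 and 1.57 FPKM in shCON and 0.0153, 0.274 and 0.0778 FPKM in shPAX6 libraries (log2 fold change -2.69, adjusted p = 0.054 by limma). With a shPAX6 mean of 0.123 FPKM, it reached the filter of 0.5 FPKM only through the shCON libraries. Values were tested on log2(FPKM + 0.1), a scale that understates differences of low genes, over features whose mean reached 0.5 FPKM.

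Of the 35 target genes in the table, 10 were under that mean, and they include several that define the pathway in luminal cells. TMPRSS2, FOLH1, ADAM7, CHRNA2, TRPM8 and MAF were listed at 0 in all 6 libraries. ACPP and ZBTB16 were listed at 0 in 5 of 6, with 0.0115 FPKM in shPAX6 library 2 and 0.0206 FPKM in shCON library 3. STEAP4 ranged from 0.111 to 0.222 FPKM and GNMT from 0.253 to 0.419 FPKM, with overlapping groups. The most abundant of the 25 tested genes were NNMT (95.3 to 195 FPKM), UAP1 (106 to 169 FPKM) and CENPN (27 to 48.6 FPKM).

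Without adjustment, 9 of the 25 genes (36%) had a limma p under 0.05, beside 18.3% of the 13574 tested features: 7 lower (14.1% of all features) and 2 higher (4.15%). The 2 groups did not overlap for 13 of 25 genes (52%), beside 26.7% of all features, with 9 lower (20%) and 4 higher (6.7%). The median log2 fold change of the 25 was -0.17, and that of all tested features was -0.12. In all, 16 genes had a value below 0 and 9 above. After median centring per library the medians were 0.01 for the 25 genes and 0.06 for all features, so the sign of the median rests on the scaling.

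The genes with higher values in shPAX6 cells were 2 surface proteins, 1 centromere protein and 1 elongation factor partner. STEAP1 had 8.57, 6.94 and 7.16 FPKM in shCON and 12.5, 10.9 and 10.7 FPKM in shPAX6 libraries (log2 fold change 0.58, SE 0.16, adjusted p = 0.12 by limma). STEAP2 had 1.13, 0.965 and 1.29 FPKM against 1.68, 1.77 and 1.55 FPKM (0.53, SE 0.23, adjusted p = 0.27 by limma). Every shPAX6 library lay above every shCON library for both members of this gene pair. CENPN had 36.2, 31.4 and 27 FPKM against 48.6, 47.4 and 42.7 FPKM (0.56, SE 0.15, adjusted p = 0.11 by limma). EAF2 had 2.81, 2.51 and 2.51 FPKM against 4.47, 3.35 and 2.88 FPKM (0.42, SE 0.22, adjusted p = 0.38 by limma). In EAF2 the lowest shPAX6 library stood only just above the highest shCON library.

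Of the genes with lower values, the transporters came first. SLC45A3 had 2.56, 2.24 and 2.42 FPKM in shCON and 0.806, 1.77 and 1.47 FPKM in shPAX6 libraries (log2 fold change -0.85, SE 0.31, adjusted p = 0.21 by limma). SLC43A1 had 1.4, 2.27 and 2.3 FPKM against 1.11, 0.823 and 1.09 FPKM (-0.89, SE 0.28, adjusted p = 0.17 by limma). Both groups kept apart, although shCON library 1 of SLC43A1 lay close to the shPAX6 values. Among enzymes, ALDH1A3 had 8.87, 7.59 and 8.46 FPKM against 2.18, 6.78 and 4.85 FPKM (-0.98, SE 0.38, adjusted p = 0.23 by limma). NNMT had 195, 194 and 185 FPKM against 179, 95.3 and 122 FPKM (-0.58, SE 0.22, adjusted p = 0.23 by limma). In ALDH1A3 shPAX6 library 1 was the lowest and in NNMT it was the highest of its group.

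The signalling genes with lower values were of several kinds. CAMKK2 had 17.9, 14 and 17.1 FPKM in shCON and 7.96, 13.2 and 10.9 FPKM in shPAX6 libraries (log2 fold change -0.63, SE 0.21, adjusted p = 0.19 by limma). HERC3 had 1.31, 0.994 and 0.897 FPKM against 0.24, 0.789 and 0.467 FPKM (-1.05, SE 0.39, adjusted p = 0.22 by limma), the largest difference among the 25 genes. Its shPAX6 mean was 0.499 FPKM, so it reached the filter of 0.5 FPKM only through the shCON libraries. C1orf116 had 7.03, 6.93 and 8.47 FPKM against 3.4, 6.65 and 4.94 FPKM (-0.62, SE 0.26, adjusted p = 0.26 by limma). In all 3 genes shPAX6 library 2 came close to the shCON values. NDRG1 had 28.5, 25.9 and 27.5 FPKM against 18.9, 25.9 and 24.4 FPKM (-0.26, SE 0.16, adjusted p = 0.44 by limma), and shCON library 2 and shPAX6 library 2 are the same as printed. MED28, the Mediator subunit, had 4.67, 4.73 and 4.36 FPKM against 3.87, 4.36 and 4 FPKM (-0.17, SE 0.16, adjusted p = 0.66 by limma), and its sign turned after median centring (0.01).

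The other 12 tested genes had overlapping groups and log2 fold changes between -0.38 and 0.39. ZBTB10 (-0.38) ranged from 2.9 to 4.64 FPKM in shCON and from 1.86 to 5.15 FPKM in shPAX6 libraries, and FKBP5 (-0.30) from 22 to 26.8 and from 13.3 to 28.7 FPKM. ABCC4 (-0.24) and ACSL3 (-0.24) were at 7.04 to 9.46 and 10.3 to 11.1 FPKM in shCON. NCAPD3 (-0.15), ELL2 (-0.06), TPD52 (-0.01), SORD (0.03) and PMEPA1 (0.05) lay near 0. PTGER4 (0.28), UAP1 (0.32) and MPHOSPH9 (0.39) had higher means in shPAX6 cells, with PTGER4 running from 1.53 to 5.2 FPKM within the shPAX6 group.

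The spread within the shPAX6 group was larger than within shCON for many of these genes, and it ran in a repeated order. In 18 of the 25 genes (72%) shPAX6 library 1 was the lowest and library 2 the highest of the group, beside 46.8% of all tested features, an order noted after the values were seen. The median deviation of the 25 genes from their shCON mean was -0.63 in shPAX6 library 1, 0.29 in library 2 and -0.13 in library 3, and over all features it was -0.31, -0.01 and -0.07. Without shPAX6 library 1 the median log2 fold change of the 25 genes was 0.11 (-0.04 for all features), and without library 2 it was -0.35 (-0.19 for all). Without library 1, NNMT passed the adjustment (-0.83, adjusted p = 0.014 by limma, beside 6.78% of all features), and without library 2, ALDH1A3 (-1.32, adjusted p = 0.044) and CAMKK2 (-0.80, adjusted p = 0.048) did (6.65% of all features). The deviation of genes in shPAX6 library 2 decreased with GC content (rho -0.64 over 12009 genes), as it did in shCON library 1 (rho -0.6), and its part in these values was not tested beyond the GC correction, which also gave 0 calls among the 25 genes.

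**Figure D4:**
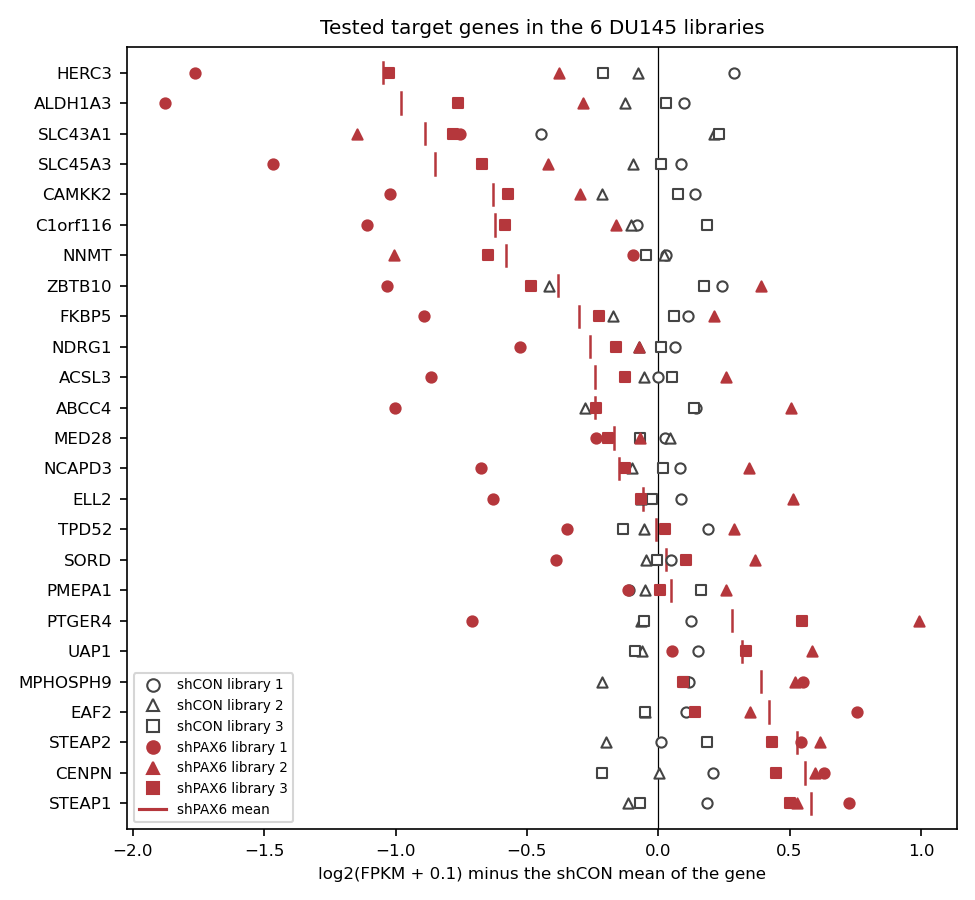
Deviation of each of the 25 tested target genes from its shCON mean on the log2(FPKM + 0.1) scale (x axis) in the 3 shCON libraries (open symbols) and the 3 shPAX6 libraries (filled symbols) of DU145, with the shPAX6 mean as a vertical bar. In most rows the filled circle (shPAX6 library 1) lies left and the filled triangle (library 2) right, and the filled symbols of STEAP1, STEAP2 and CENPN all lie right of the open ones.

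Values in both tables were available for 24 of the target genes, from different cell lines, contrasts and units. Lower in LNCaP-ENZ and in shPAX6 cells were 14 of the 24 (58.3%), beside 38.4% of the 10629 genes measured in both. These are directions of values only: the LNCaP ratios have no test, 0 of these genes passed it in DU145, and the medians of all genes lay below 0 in both tables (-0.15 and -0.12). SLC45A3 (log2 ratio -2.57 in LNCaP, log2 fold change -0.85 in DU145), ALDH1A3 (-2.48 and -0.98) and HERC3 (-2.13 and -1.05) were at the low end of both. HERC3 reached the DU145 filter only through the shCON libraries. PTGER4 (-2.16 and 0.28), UAP1 (-1.55 and 0.32) and MPHOSPH9 (-1.01 and 0.39) were among 8 genes lower in LNCaP-ENZ and higher in shPAX6 cells. SORD alone was higher in both (0.16 and 0.03), and MED28 was the one gene with the opposite pattern (0.01 and -0.17).

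**Figure D5:**
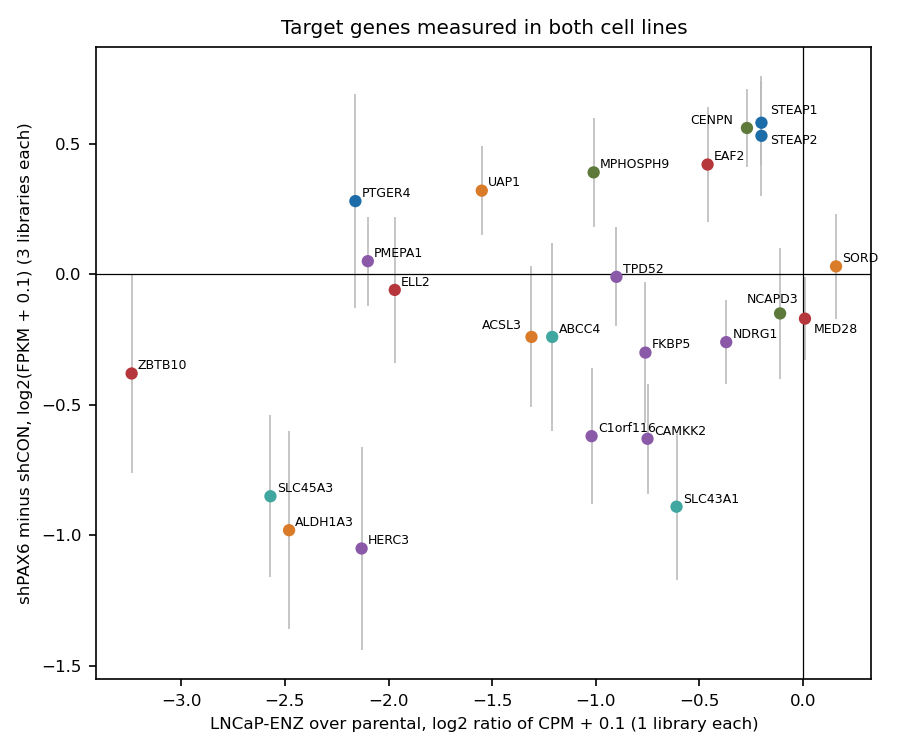
Log2 ratio of CPM + 0.1 between LNCaP-ENZ and parental cells (x axis, 1 library each, no error shown) against the log2(FPKM + 0.1) difference between shPAX6 and shCON DU145 cells (y axis, mean of 3 libraries each, bars are limma standard errors) for the 24 target genes measured in both, coloured by class. SLC45A3, ALDH1A3 and HERC3 lie at the lower left, and STEAP1, STEAP2, CENPN and EAF2 near the top.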

How the data were processed

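RNA-seq tables of LNCaP (1 parental, 1 LNCaP-ENZ library) and DU145 (3 shCON, 3 shPAX6 libraries) were analysed; the 6 ATAC-seq samples were not used here. For LNCaP, the authors deposited whole-number counts per gene and TPM, which equal counts over gene length rescaled to a common total. The deposited DU145 table names no unit, and its values were taken as FPKM computed by the authors with StringTie. The methods name GRCh37, HISAT2 and StringTie, and the submitters' processing notes name HISAT2 and STAR; the methods and the labels describe different library kits, and strand was not stated to be used in counting. The table columns were matched to samples through the condition and number that the labels give, and 1 library per LNCaP arm was found.

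LNCaP counts were scaled to CPM by the library totals of 20468001 and 17945722, and log2 ratios of CPM + 0.1 were given 95% exact Clopper-Pearson intervals. Among genes with a mean of at least 1 CPM, those with a log2 ratio of at least 1 or at most -1 were counted as past 2-fold. DU145 values were tested with limma 3.58.1 (lmFit, eBayes with a trend, two-sided) on log2(FPKM + 0.1) over all 13574 features whose mean reached 0.5 FPKM, p-values were adjusted after Benjamini and Hochberg, and the threshold was 0.05. TMM factors came from edgeR 4.0.16 under R 4.3.3, and GC content from the longest transcript of each gene; GC corrections used loess (span 0.5, degree 2). Promoter windows came from RefSeq (GRCh38.p14). Both steps were tested on simulated data. The DU145 simulation drew noise separately for each gene and library, so it does not cover shifts shared by many genes of a library.

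Every member was named; in DU145, values of every library were given for members with an unadjusted p under 0.05 or groups that did not overlap. From the other lists, the 3 largest differences in each direction (LNCaP: mean of at least 5 CPM), FOXA1, HOXB13, NR3C1, KLK2, KLK3 and PAX6 were named, and some genes that this rule and the lists also cover are not reported here. The members and lists were chosen with earlier results of these data known. Alternatives for LNCaP were pseudocounts of 1 and 0.01, a mean of at least 5 CPM, no filter, the median ratio set to 0, TMM factors, totals without the 10 most counted genes, and TPM, and for DU145 pseudocounts, filters, median centring or quantile normalization, eBayes with no trend, the replicate block, a GC correction and each library left out. The 2 GC corrections in LNCaP were added after seeing the data.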

Additional observations from a re-analysis of the deposited data

How the results depend on the processing

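In LNCaP, between 14 and 20 target genes were past 2-fold over the 8 alternatives and the 2 GC corrections. The ends came from different gene sets, 14 of 26 at a mean of at least 5 CPM and 20 of 36 with no filter. Past 2-fold lower in these 2 settings were 7.05% and 14.7% of all genes. The median log2 ratio moved from -1.02 to -0.86 with the median of all genes set to 0, to -0.87 with TMM factors and to -0.79 with the GC and length correction. No gene past 2-fold changed sign under any of them, and those that crossed the 2-fold line under a change of scale, pseudocount or GC correction were ABCC4, ACSL3, C1orf116 and MPHOSPH9. In DU145, the number of target genes with an adjusted p under 0.05 was 0 in all alternatives except when a library was left out, where it ranged from 0 to 2, and the cause was not tested. Among all 13574 features, 163 were called, of which 139 were lower and 24 higher; 100 were called after median centring (72 lower, 28 higher), 236 after quantile normalization (162 lower, 74 higher), 108 without a filter, 138 after the GC correction (98 lower, 40 higher) and between 0 and 920 with a library left out. MED28 reversed after quantile normalization (0.02) and after median centring (0.01). With the replicate number as a block, 0 of 25 target genes and 0 features passed. An unadjusted limma p under 0.05 was then seen for 7 target genes, beside 1568 of the 13574 features. The methods state no pairing of same-numbered libraries. Their deviations correlated at -0.17, -0.37 and 0.05, which cannot decide it, since deviations also followed GC content in some libraries. Intervals in LNCaP cover counting error only, 4 of 31 genes were under 1 CPM in LNCaP-ENZ cells, and the depth of the DU145 libraries is unknown.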

Other observations

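The glucocorticoid receptor, which binds a DNA element much like that of androgen response, had more counts in LNCaP-ENZ cells. NR3C1, which encodes it, had 44 counts in parental and 142 in LNCaP-ENZ cells (log2 ratio 1.83, 95% interval 1.38 to 2.40, 2.24 after the GC correction), and its level stayed under 1 TPM (0.237 and 0.823 TPM). Genes listed as glucocorticoid targets shared with androgen signalling were lower: KLF9 had 1020 and 362 counts (-1.30), PER1 1112 and 447 (-1.12, -0.97 with the median of all genes set to 0) and TSC22D3 1383 and 711 (-0.77). Which receptor these differences follow was not tested. Of the 6 genes of this list, 2 were past 2-fold lower and 1 higher, beside 9.57% and 1.84% of all genes with a mean of at least 1 CPM. The glucuronosyltransferase genes known to be repressed by androgen and to inactivate it, which are UGT2B15 (533 and 684 counts, 0.55) and UGT2B17 (172 and 272 counts, 0.84, 1.15 after the GC correction), were higher, and since they are nearly identical in sequence their counts may share reads. MET, a receptor tyrosine kinase, had 295 and 235 counts (-0.14), and BCHE, a cholinesterase, which is under the level set for naming and was named after its values were seen, had 71 and 46 (-0.42, with 0 inside its 95% interval). The sign of each depends on the setting: MET was at 0.02 with the median of all genes set to 0, and BCHE at 0.06 after the GC correction. Of the 4 androgen-repressed genes with a mean of at least 1 CPM, 0 were past 2-fold in either direction without a correction. There is 1 library per arm, so these values have no test.

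In DU145, 1 of 68 tested genes among the other androgen-responsive genes passed the adjustment (1.47%), beside 1.2% of all tested features. SMS, the spermine synthase of the polyamine pathway, had 61.5, 61.3 and 52.8 FPKM in shCON and 98.6, 90.8 and 102 FPKM in shPAX6 libraries and rose (log2 fold change 0.73, SE 0.13, adjusted p = 0.045 by limma), with adjusted p between 0.017 and 0.32 over the alternatives. CDK6, a cell cycle kinase, had 0.693, 0.55 and 0.755 FPKM against 1.06, 2.69 and 1.42 FPKM (1.16, adjusted p = 0.16 by limma). CCND1, which encodes cyclin D1, had 80, 74.5 and 85.4 FPKM against 107, 162 and 132 FPKM (0.72, SE 0.17, adjusted p = 0.092 by limma). In all 3 genes every shPAX6 library lay above every shCON library, as for 6.7% of all tested features. On the lower side, ZMIZ1, a transcriptional coregulator, had 7.07, 5.97 and 8.17 FPKM against 1.74, 6.06 and 3.26 FPKM (-1.08, adjusted p = 0.23 by limma), which overlap. PTK2B, a focal adhesion type kinase, had 3.83, 3.79 and 3.91 FPKM against 1.52, 2.29 and 1.79 FPKM (-1.02, SE 0.21, adjusted p = 0.071 by limma). TSC22D1, a leucine zipper regulator of transcription, had 23, 21 and 21.8 FPKM against 9.38, 14.1 and 11.5 FPKM (-0.92, SE 0.17, adjusted p = 0.056 by limma). The groups of PTK2B and TSC22D1 did not overlap, with every shPAX6 library lower, as for 20% of all tested features. The adjusted p by limma ranged over the alternatives from 0.023 to 0.38 for PTK2B, from 0.016 to 0.33 for TSC22D1 and from 0.012 to 0.38 for CCND1.

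Of the 16 tested cofactors and coregulators, 0 passed limma's adjustment and 0 had an unadjusted p under 0.05, and the median of their log2 fold changes was -0.18. Among the lowest were the acetyltransferase EP300 (-0.84, adjusted p = 0.52 by limma) and the corepressor NCOR1 (-0.43, adjusted p = 0.64). The highest were the chaperones HSP90AA1 (0.30, adjusted p = 0.49) and HSP90AB1 (0.16, adjusted p = 0.62) and FKBP4 (0.14, adjusted p = 0.58). Of the 6 genes of the glucocorticoid list, 0 passed limma's adjustment, and 1 lower and 1 higher had an unadjusted p under 0.05. PER1, a clock gene, had 3.14, 2.55 and 3.18 FPKM in shCON and 1.49, 1.62 and 1.43 FPKM in shPAX6 libraries (-0.91, SE 0.20, adjusted p = 0.081 by limma). TSC22D3, which encodes GILZ, had 3.79, 3.75 and 4.72 FPKM against 6.12, 5.2 and 7.98 FPKM (0.63, SE 0.21, adjusted p = 0.19 by limma). Neither pair of groups overlapped, as for 26.7% of all tested features. The others were KLF9 (-0.29, adjusted p = 0.70), SGK1 (0.48, adjusted p = 0.36) and DUSP1 (0.02, adjusted p = 0.97). NR3C1 had 10.5, 7.68 and 8.69 FPKM in shCON and 4.5, 14.8 and 7.34 FPKM in shPAX6 libraries, which overlap (-0.17, adjusted p = 0.87 by limma). The 2 tested androgen-repressed genes were BCHE (0.16, adjusted p = 0.67 by limma) and MET (0.11, adjusted p = 0.91), both with overlapping groups.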
